A study of Mus musculus with 3 samples.

Results

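The genes of the microtubule motors kinesin and cytoplasmic dynein, with the kinesin light chains and the dynactin complex, were examined in RNA captured on tagged ribosomes from the cerebral cortex of adult mice. Members were taken by symbol: those starting with Kif and a digit, Klc1 to Klc4, those starting with Dync1, Dync2 or Dynl, and Dctn1 to Dctn6. The rule found 63 of the 32531 gene symbols counted, of which 38 were kinesins, 4 kinesin light chains, 7 dynein chains, 8 dynein light chains and 6 dynactin subunits. One of the 38 kinesin symbols, Kif4-ps, is a pseudogene. Genes without a count were kept.

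The mice carried the Htr3a-Cre driver of founder line NO176 and a Rosa26-LSL-EGFP/Rpl10a reporter, in which Cre removes a stop cassette and a ribosomal protein is then made as a fusion with EGFP. Tagged polysomes were captured from homogenised whole cortex with antibodies against EGFP, a method known as translating ribosome affinity purification. The 3 libraries, called replicates 1, 2 and 3, form 1 immunopurified group, and unpurified cortex was not analysed here. Ribosomes are tagged in any cell that has ever expressed Cre, and a level cannot separate more tagged cells from more RNA per cell. Whether each replicate was a separate animal is not in the labels, so the p-values cover the spread among 3 samples, and that spread may be technical. The labels name interneurons as the cells profiled, and all 12 GABAergic markers reached 1 TPM (counts divided by exon length and scaled to a fixed total per library) in 3 of 3 libraries, with Gad2 at 2122, 2322 and 2140 TPM and Vip at 1220, 884 and 1021 TPM. Excitatory markers were present too, with 7 of 8 at 1 TPM in 3 of 3 libraries, against 50.9% of genes with a length. Camk2a led at 2885, 2426 and 2317 TPM, followed by Nrgn at 252, 337 and 405 TPM. The medians of the microglial and endothelial lists were 2.11 ± 0.726 and 0.758 ± 0.0796 TPM, and that of the astrocyte list was 7.48 ± 1.06 TPM (mean ± SD over 3 libraries). The astrocyte list was uneven. Its highest 2 markers, Slc1a2 at 420, 342 and 347 TPM and Aldoc at 220, 186 and 191 TPM, lay far above the other 6.

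Kinesins and cytoplasmic dynein are ATP-driven motors that walk along microtubules in opposite directions, most kinesins towards the plus end and dynein towards the minus end. In axons, where plus ends point away from the cell body, kinesins of families 1, 2 and 3 carry vesicles, mitochondria and other cargo outward, and dynein with its cofactor dynactin carries signalling endosomes and worn organelles back. Another set of kinesins builds and positions the mitotic spindle or completes cell division, and neurons of the adult cortex no longer divide. The comparison of transport with mitotic kinesins therefore sets motors of cargo against motors of division within the same libraries.

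Short stretches of promoter are shown first because transport and mitotic kinesin genes hold a cell cycle motif in different shares, a feature that uses no read count. The hexamer TTTGAA, read on either strand, is the core of the cell cycle genes homology region, a promoter element of many mammalian genes of mitosis. It was searched from 250 bases before to 50 bases after the RefSeq start (GRCm38.p6). It occurred in 1 of 10 transport kinesin genes with such a window and in 9 of 11 mitotic kinesin genes, against 20.2% of 27025 genes with a window. Within 25 bases of the start, a limit set after the positions were seen, it occurred in 0 of 10 transport kinesin genes and 7 of 11 mitotic ones, against 3.16% of all genes. The CCAAT box, likewise read on both strands, was less divided, at 3 of 10 transport and 7 of 11 mitotic genes, against 41.1% of all genes. A match is a description of the letters, not evidence of binding. The stretches below run 5′ to 3′ on the gene's strand, with 1 hexamer or its reverse complement in capitals. In Kif20b a second copy follows directly and is left in lower case.
Kif1a, chr1:93082507-93082536, minus strand: tttgacagcctcTTTGAAcattgctcctaa
Kif11, chr19:37376351-37376380, plus strand: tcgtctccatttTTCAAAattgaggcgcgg
Kif15, chr9:122951050-122951079, plus strand: tggggcgccaaaTTCAAAtctgcggccatc
Kif22, chr7:127042420-127042449, minus strand: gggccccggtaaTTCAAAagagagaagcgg
Kif23, chr9:61946780-61946809, minus strand: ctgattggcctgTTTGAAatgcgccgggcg
Kif18b, chr11:102925104-102925133, minus strand: cggaccggctagTTTGAAcgcgccgcgccg
Kif20b, chr19:34922353-34922382, plus strand: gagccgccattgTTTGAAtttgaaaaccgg
Kif4, chrX:100626072-100626101, plus strand: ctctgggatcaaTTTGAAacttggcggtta
The Kif1a match lies at an annotated start inside that gene. In the 7 mitotic genes shown the capitals start between 19 bases before and 19 bases after the annotated start. Kif15 and Kif22 hold a further match, at -234 and -215 from the start.

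Of the 63 members, 40 reached 1 TPM in 3 of 3 libraries and 18 reached 100 TPM, against 50.9% and 7.4% of the 23892 genes with a known exon length. No read was counted for Kif2b, Kif12 or Kif4-ps in 3 of 3 libraries, and 42.4% of all symbols were likewise at 0. A count of 0 allows up to 3 counts, or 0.209, 0.215 and 0.207 CPM (counts scaled to a fixed library total) in replicates 1, 2 and 3. The level of each gene was also set against the median of the tested genes of its library, which stood at 20.9, 22.8 and 23.4 TPM. A mean of at least 1 CPM was required, which 44 members met. Of these, 28 lay above the median and 15 below it at an adjusted p under 0.05 (limma), against 43.2% and 42.7% of the 12456 genes tested. The member between, Dync2li1, did not pass in either direction. Members together held 1.04% ± 0.0266 of all TPM (SD, n = 3, as for all values after ±).

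The median transport kinesin was far above the median mitotic kinesin, though 5 of 13 transport kinesins lay below the library median. The median of the 13 transport kinesins was 131, 115 and 127 TPM in replicates 1, 2 and 3, and that of the 12 mitotic kinesins 0.443, 0.383 and 0.450 TPM. Every library thus kept the lists far apart. On the scale of log2(TPM + 0.1) the medians differed by 7.92, 7.98 and 7.89, a mean of 7.93 (SD 0.05), or 244-fold. The lists were chosen by function, with Kif2a in neither, and no p is given for a difference between list medians. Summed over the list, transport kinesins came to 3861, 3604 and 3464 TPM and mitotic kinesins to 7.84, 6.82 and 7.59 TPM. The lists overlapped at Kif13b: this lowest transport kinesin, at 0.670 ± 0.195 TPM, lay below Kif11, the highest mitotic one at 1.77 ± 0.510 TPM. The contrast was smaller on other scales, 6.46 with a pseudocount of 1 TPM and 6.40 over members with at least 1 CPM, and kept its direction.

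**Figure D1:**
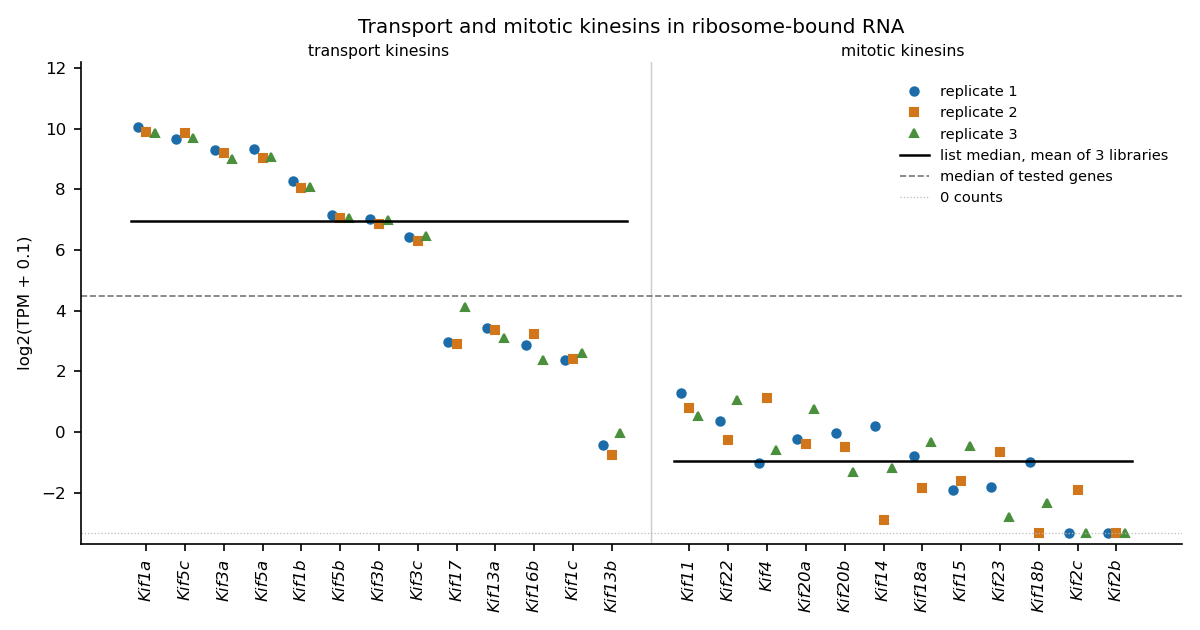
Level of each transport kinesin (left) and mitotic kinesin (right) as log2(TPM + 0.1), 1 point per library, with the mean of the list medians as a black line and the median of tested genes dashed. The 8 highest transport kinesins sit above the dashed line in each library, and the 12 mitotic kinesins sit below it.

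Among transport kinesins, 8 of 13 lay above the library median and 5 below it (limma, adjusted p under 0.05 for each). The list was thus not high throughout, and the shares over all genes tested were 43.2% and 42.7%. Kif1a, the kinesin-3 motor of synaptic vesicle precursors and dense core vesicles, led the list at 1065, 945 and 928 TPM. It was 43.6-fold above the median of tested genes (log2 difference 5.45, SE 0.13; limma, adjusted p = 1.38e-08) and ranked 101 of 23892 genes by mean TPM. The gene lies on chromosome 1 from 93015464 to 93101951 (GRCm38) on the minus strand. Its relative Kif1b, which carries mitochondria and synaptic vesicle precursors, stood at 312, 263 and 268 TPM. Kif1a exceeded Kif1b by 1.77, 1.84 and 1.79 on the log2 scale, or 3.49-fold. Kif1c, known from Golgi traffic and podosomes, stood at 5.04, 5.23 and 6.04 TPM, 4.06-fold under the median of tested genes (limma, adjusted p = 2.55e-05). Kif1b was 50.8-fold above Kif1c, and their values did not overlap.

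The kinesin-1 heavy chains are the conventional kinesins, which carry mitochondria, vesicles and other cargo along axons and dendrites. Kif5c stood at 818, 928 and 823 TPM. Kif5a stood at 639, 521 and 539 TPM. Kif5b, the form also found in most other tissues, stood at 142, 134 and 133 TPM. The neuronal forms Kif5a and Kif5c thus lay well above the general form in 3 of 3 libraries. Kif5c made up 54.9% ± 3.73 of kinesin-1 heavy chain TPM, Kif5a 36.3% ± 3.55 and Kif5b 8.75% ± 0.225. Kif5c exceeded Kif5a by 0.36, 0.83 and 0.61 on the log2 scale, a mean of 0.60 (SD 0.24). Kif5a exceeded Kif5b by 2.05 (SD 0.11), or 4.14-fold. Kif1a and Kif5c, neighbours in the order of levels, were close: the log2 difference was 0.38, 0.02 and 0.17, with an SD of 0.18 around a mean of 0.19. Kif5c is on chromosome 2 from 49619298 to 49774778 on the plus strand, and Kif5a on chromosome 10 from 127225696 to 127263348 on the minus strand.

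Kinesin-2 motors join Kif3a to either Kif3b or Kif3c, with the cargo adaptor Kifap3, and carry membrane vesicles in axons and building material in cilia. Kif3a stood at 637, 585 and 518 TPM. Kif3b stood at 131, 115 and 127 TPM, and Kif3c, a form of neurons, at 85.8, 79.3 and 89.1 TPM. The common subunit thus lay above both of its alternative partners, by 4.65-fold over Kif3b and 6.83-fold over Kif3c. On the log2 scale these were 2.22 and 2.77, against 2.40 and 2.83 with longest transcripts and 1.57 and 1.73 with no length. Kif3b exceeded Kif3c by 0.55 (SD 0.05) on the log2 scale, against 0.43 with longest transcripts and 0.16 with no length. Other genes overlap 40.7% of the Kif3c exons, and no source states the strand setting of the counting, so its level is less certain. Kifap3, which is not a member by the rule, stood at 481, 429 and 372 TPM, and Kif3a lay 0.44 (SD 0.04) above it on the log2 scale. Kif17, the homodimeric kinesin-2 known for carrying NMDA receptor subunits into dendrites of pyramidal neurons, was far lower at 7.68, 7.44 and 17.5 TPM. Replicate 3 stood apart for this gene, 2.33-fold above the lowest library after scaling (chi-square test, adjusted p = 3.64e-16), and without it the ratio was 1.05 and no longer passed.

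The remaining kinesin-3 motors were low as well. Kif13a, which moves recycling endosomes, stood at 10.7, 10.3 and 8.51 TPM. Kif16b, a motor of early endosomes, stood at 7.16, 9.21 and 5.08 TPM. Kif13b had 23, 18 and 33 counts and was 29.7-fold under the median of tested genes (log2 difference -4.89, SE 0.45; limma, adjusted p = 1.37e-05). Kif13a exceeded Kif13b by 3.87, 4.14 and 3.14 on the log2 scale, or 13.1-fold. Without the filter on low counts, which lowers the median, Kif13a and Kif17 lay -0.18 and -0.15 from it on the log2 scale and no longer passed, against -1.18 and -1.15 with it. Kif13a also no longer passed with no length used, at -0.35. The 5 genes Kif1a, Kif5c, Kif3a, Kif5a and Kif1b held most of the transport kinesin TPM, at 26.9%, 23.6%, 15.9%, 15.5% and 7.71% of it.

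Of the 12 mitotic kinesins, 1 reached 1 TPM in 3 of 3 libraries, against 50.9% of genes with a length. The minimum of 1 CPM was met by 3. Those 3 lay below the library median (limma, adjusted p under 0.05 for each), against 42.7% of all genes tested. The other 9 were not tested under that minimum. Kif4 no longer met it without replicate 2, nor Kif22 without replicate 3. Kif11, the plus-end motor that pushes spindle poles apart, had 48, 34 and 29 counts and 2.33, 1.62 and 1.35 TPM. Its level was 12.3-fold under the median of tested genes (log2 difference -3.62, SE 0.34; limma, adjusted p = 1.45e-05). Kif22, a chromosome-arm motor, had 16, 10 and 28 counts. Kif4, a chromosome-bound motor also needed for cytokinesis, had 6, 32 and 9 counts, and replicate 2 stood 5.13-fold above the lowest library (chi-square test, adjusted p = 6.75e-06). It was the largest ratio among the 44 members tested.

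The cytokinesis motors Kif20a, Kif20b and Kif23 had 9, 8 and 20, then 17, 12 and 6, and then 4, 12 and 1 counts in replicates 1, 2 and 3. Kif14, which acts in the midbody, had 30, 1 and 10 counts, so replicate 1 held most of its reads. The spindle motors Kif15 and Kif18a had 5, 7 and 20 and 13, 5 and 20 counts. Kif18b had 4, 0 and 1, Kif2c, a microtubule depolymerase at centromeres, 0, 2 and 0, and Kif2b none. Other genes overlap 29.3% of the Kif20a exons and 15.1% of the Kif4 exons, so their counts are less certain.

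Markers of dividing cells that are not members were low too. Of 15 listed, Tpx2, an activator of spindle assembly, led at 4.81, 4.56 and 1.92 TPM, followed by the mitotic kinase gene Aurka at 0.860, 3.51 and 3.28 TPM. The cyclin gene Ccnb1 and the kinase gene Cdk1 had 0 counts in 3 of 3 libraries. The median of the list was 0.558, 0.230 and 0.226 TPM. In 3 of 3 libraries, 1 of 15 reached 1 TPM, against 50.9% of genes with a length. Precursors of oligodendrocytes, which still divide in the adult cortex, had markers at a median of 5.17, 3.94 and 3.38 TPM, with Olig2 at 18.9, 12.5 and 9.58 TPM and Gpr17 at 5.17, 3.63 and 4.06 TPM. Whether the few mitotic kinesin reads came from such cells was not tested.

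Kinesin light chains bind the tails of kinesin-1 heavy chains and link them to cargo. Klc1, the neuron-enriched form, stood at 231, 343 and 432 TPM. Klc2 stood at 89.0, 81.7 and 104 TPM. Klc4 had 17, 77 and 28 counts, and Klc3, a form known from testis, 0, 2 and 4 counts. Klc1 and Klc2 lay above the library median and Klc4 below it (limma, adjusted p under 0.05 for each). The shares over all genes tested were 43.2% above and 42.7% below. Klc1 was 3.56-fold above Klc2 and made up 76.7% ± 4.49 of light chain TPM. Klc1 differed between libraries by 1.82-fold (chi-square test, adjusted p = 4.43e-135), with replicate 1 the lowest, while Klc2 differed by 1.26-fold. Summed heavy chains stood at 1599, 1584 and 1495 TPM and summed light chains at 322, 437 and 541 TPM, a ratio of 4.96, 3.63 and 2.76. The heavy chain sum varied less between libraries than the light chain sum.

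**Figure D2:**
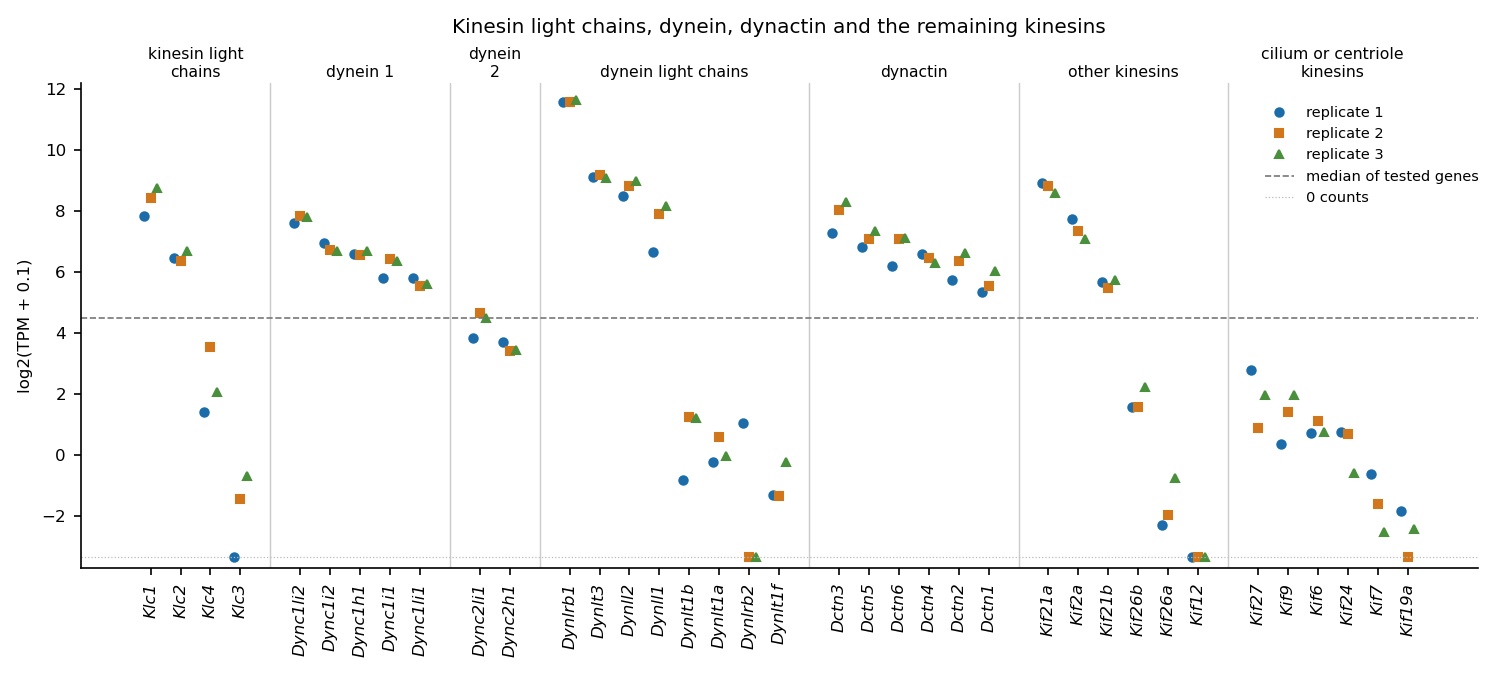
Level of kinesin light chains, dynein chains, dynactin subunits and the remaining kinesins as log2(TPM + 0.1), 1 point per library, with the median of tested genes dashed. The 5 dynein 1 chains and 6 dynactin subunits lie above the dashed line in each library, and Dynlrb1 is the highest member on this length-corrected scale.

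Cytoplasmic dynein 1 carries cargo towards the cell body and is built from paired heavy, intermediate and light intermediate chains with small light chains. The 5 larger chains lay above the library median without exception (limma, adjusted p under 0.05 for each), against 43.2% of the 12456 genes tested. Dync1h1, the motor heavy chain, stood at 96.6, 95.4 and 103 TPM, and differed between libraries by 1.07-fold, the smallest ratio of the 44 members tested after that of Dynlrb1. It lies on chromosome 12 from 110601452 to 110666945 on the plus strand. Of the intermediate chains, which hold dynactin and cargo, Dync1i2 stood at 124, 106 and 103 TPM and the neuron-specific Dync1i1 at 56.3, 86.1 and 82.0 TPM. The general form lay above the neuronal form by 1.14, 0.29 and 0.33 on the log2 scale, a mean of 0.59 (SD 0.48) that rests mostly on replicate 1. Without that library it was 0.31. Over 3 libraries the mean was 1.07 with longest transcripts and 1.80 with no length.

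Of the light intermediate chains, which bind activating adaptors, Dync1li2 stood at 194, 231 and 222 TPM. Dync1li1 stood at 55.4, 46.9 and 48.6 TPM, so Dync1li2 was 4.29-fold higher (log2 difference 2.10, SD 0.26). Dync1li2 was also 1.95-fold above Dync1i2. Dync1i2 minus Dync1h1 was 0.36, 0.15 and -0.01 on the log2 scale, a mean of 0.17 (SD 0.18). Their order depends on length, since the mean was 0.91 with longest transcripts and -0.75 with no length.

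Dynein 2 works inside cilia, where it returns material from the tip. Its heavy chain Dync2h1 stood at 13.0, 10.6 and 10.9 TPM and was 1.94-fold under the library median (limma, adjusted p = 0.000960). That direction rests on the length correction and the filter: without the correction the log2 difference was 0.89, and without the filter on low counts 0.044, against -0.96. Its light intermediate chain Dync2li1 stood at 14.4, 25.1 and 22.6 TPM, and lay -0.15 from the median on the log2 scale. It was called below the median with no length used, at -1.41, and stood at 0.85 without the filter. The dynein 1 heavy chain was 8.53-fold above that of dynein 2, at 2.89, 3.15 and 3.24 on the log2 scale.

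Dynein light chains are small proteins, several of which also serve in complexes other than dynein. Dynlrb1, a roadblock light chain, was the highest of the 63 members at 3031, 3047 and 3220 TPM. It ranked 22 of 23892 genes and was 138-fold above the median of tested genes (log2 difference 7.11, SE 0.14; limma, adjusted p = 1.32e-08), and its libraries differed by 1.04-fold. Its place depends on its short exons of 1009 nt: with no length used its level was 4.95 above the median on the log2 scale, below Kif1a at 6.49, Kif5c at 5.91, Kif1b at 5.60 and Kif5a at 5.28. Its paralog Dynlrb2, known from ciliated cells, had 3, 0 and 0 counts. Dynlt3, a Tctex-type light chain, stood at 552, 585 and 548 TPM. Markers of ependymal cells were scarce, with 2 of 10 (a list that holds Dynlrb2) at 1 TPM in 3 of 3 libraries. The share of genes with a length was 50.9%. Rsph1 led the list at 2.12, 4.40 and 12.6 TPM, followed by Foxj1 at 6.50, 4.61 and 2.11 TPM.

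The LC8 light chains Dynll1 and Dynll2 are close relatives whose coding sequences can still be told apart by reads, and the first 60 coding bases are shown for that reason. Capitals mark where a sequence differs from the first line of its set (GENCODE M21).
Dynll1, chromosome 5: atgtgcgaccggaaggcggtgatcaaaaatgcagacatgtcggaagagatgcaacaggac
Dynll2, chromosome 11: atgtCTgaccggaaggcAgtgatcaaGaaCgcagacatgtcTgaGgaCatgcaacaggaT
They differ at 50 of 267 coding bases, an identity of 81.3%. Dynll2 stood at 362, 458 and 502 TPM and Dynll1 at 101, 242 and 286 TPM. Dynll1 had 1087, 2652 and 3213 counts, so replicate 1 lay 2.74-fold below the highest library after scaling (chi-square test, adjusted p = 1.50e-194). Dynll2 was 1.34-fold apart. Dynll2 exceeded Dynll1 by 1.84, 0.92 and 0.81 on the log2 scale, a mean of 1.19 (SD 0.56), or 0.54 with the longest transcript as length.

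The Tctex-type genes Dynlt1a, Dynlt1b and Dynlt1f could not be measured apart, as their sequences show.
Dynlt1a, chromosome 17: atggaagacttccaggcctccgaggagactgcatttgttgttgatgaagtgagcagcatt
Dynlt1b, chromosome 17: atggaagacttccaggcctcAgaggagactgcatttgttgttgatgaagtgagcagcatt
Dynlt1f, chromosome 17: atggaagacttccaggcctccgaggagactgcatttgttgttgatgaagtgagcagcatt
Over 339 coding bases, Dynlt1a and Dynlt1f are identical and Dynlt1b differs from them at 1 base. Of all 50-base stretches of their transcripts, 63.0%, 83.2% and 88.6% occur in transcripts of other genes. Those genes include Dynlt1c, which is identical to Dynlt1a over the coding bases and is not among the symbols counted. Counts were 9, 17 and 11 for Dynlt1a, 1, 5 and 5 for Dynlt1b and 3, 3 and 8 for Dynlt1f. Reads without a unique alignment were kept in a line of their own in the files, so these counts leave such reads out and no level is read from them.

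Dynactin, the cofactor that makes dynein processive, was present in full as far as the rule covers it. Its 6 subunits lay above the library median (limma, adjusted p under 0.05 for each), against 43.2% of all genes tested. Their list median was 84.6, 113 and 119 TPM, against 96.6, 95.4 and 103 TPM for dynein 1. Dctn1, the p150 subunit that binds microtubules and dynein, was the lowest at 41.0, 47.1 and 65.1 TPM. Dctn2, the dynamitin subunit, stood at 53.3, 83.1 and 99.8 TPM and exceeded Dctn1 by 0.60 (SD 0.22) on the log2 scale. Dctn3, the p24 subunit of the same shoulder, was the highest at 155, 263 and 317 TPM. Of the pointed-end subunits, Dctn4 stood at 96.0, 89.0 and 79.1 TPM, Dctn5 at 113, 136 and 163 TPM and Dctn6 at 73.2, 137 and 139 TPM. In 5 of the 6 genes replicate 1 was the lowest library, and in Dctn4 it was the highest. The order within the complex depends on length: Dctn3 minus Dctn6 was 1.07 on the log2 scale, but -0.021 when each gene's longest transcript gave the length and -0.38 when no length was used.

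**Figure D3:**
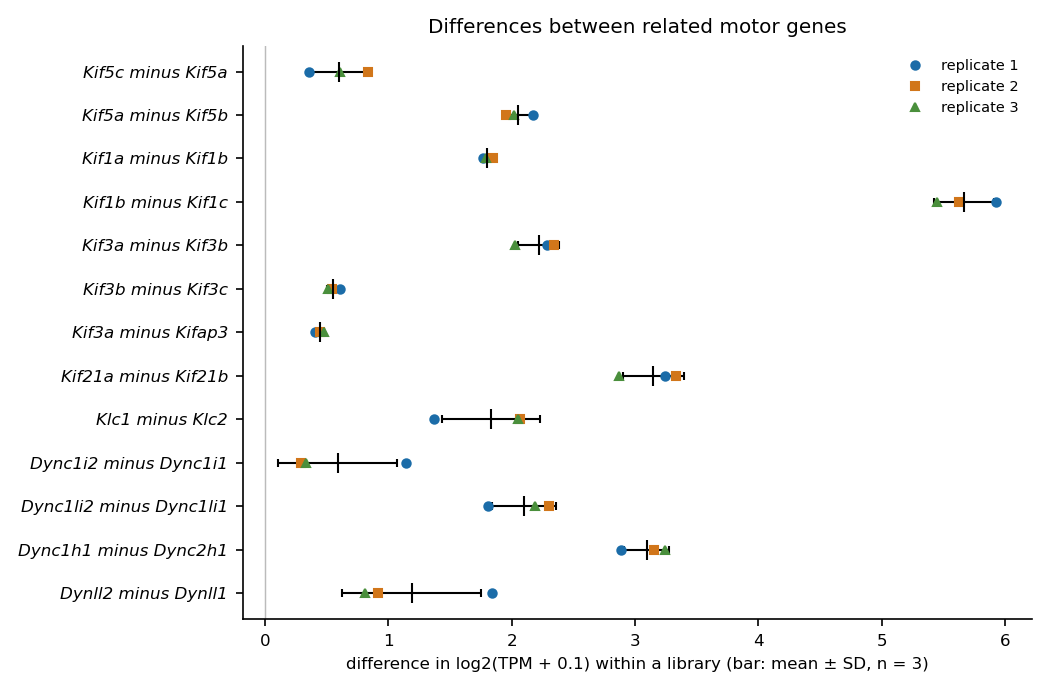
Difference between related motor genes within each library on the scale of log2(TPM + 0.1), first-named gene minus second, with the mean and SD over 3 libraries. Each pair shown has the same direction in 3 of 3 libraries, from 0.44 for Kif3a minus Kifap3 to 5.67 for Kif1b minus Kif1c. The pairs were picked from 29, without the 3 that turn with no length used. Of those 3, Dync1i2 minus Dync1h1 also changes sign between libraries, at 0.36, 0.15 and -0.01.

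The pairs described were chosen after the counts were seen, and with 3 libraries an exact sign-flip test could not give a two-sided p below 0.25, so their differences are given with SDs and no test. Levels of different genes depend on the length used: of 29 pairs, the difference moved by more than its SD in 14 and turned in 1 with longest transcripts, and moved in 19 and turned in 3 with no length. Kif1a minus Kif1b, 1.80 on the log2 scale, was 0.89 with no length.

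Kinesins outside both lists were mixed. Kif21a, a motor that slows microtubule growth and moves along axons, stood at 487, 450 and 389 TPM, 19.6-fold above the library median (limma, adjusted p = 2.39e-08). Its relative Kif21b, found in dendrites as well, stood at 51.5, 44.5 and 53.2 TPM, so Kif21a was 8.86-fold higher. Kif2a, a microtubule depolymerase that prunes axon branches, stood at 212, 162 and 136 TPM, with replicate 1 the highest and 1.60-fold over the lowest library (chi-square test, adjusted p = 3.21e-76). Other genes overlap 19.2% of its exons. Kif2b and Kif2c, which share its family name, are in the mitotic list, where Kif2a was not placed. Kif2a lay far above each mitotic kinesin. It also lay above their sum of 7.84, 6.82 and 7.59 TPM, so the mitotic sum depends on leaving it out. The contrast with transport kinesins was not computed with Kif2a added. Kif12, a motor of epithelial cells, had 0 counts in 3 of 3 libraries.

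Of the 6 kinesins of cilia and centrioles, 3 reached 1 TPM in 3 of 3 libraries, against 50.9% of genes with a length. None reached 5 TPM in 3 of 3 libraries, against 40% of the same 23892 genes. The 4 that met 1 CPM lay below the library median (limma, adjusted p under 0.05 for each), against 42.7% of all genes tested. Kif27, a relative of the Hedgehog regulator Kif7, had 98, 26 and 58 counts, Kif9 14, 31 and 47, Kif6 26, 35 and 28 and Kif24 35, 34 and 13. Kif19a, which sets cilium length, had 2, 0 and 1 counts. Kif27 was highest in replicate 1 and Kif9 in replicate 3, with ratios of 3.92 and 3.11 between the highest and lowest libraries.

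Adaptors and regulators of these motors that are not members were mostly high. Of 28 listed, 26 reached 1 TPM in 3 of 3 libraries, against 50.9% of genes with a length. Over all genes tested, 43.2% lay above the library median and 42.7% below it. Of the 27 listed that met 1 CPM, 21 lay above it and 4 below it (limma, adjusted p under 0.05 for each). The highest were Capzb, a capping protein of the dynactin filament, at 492, 454 and 470 TPM, Kifap3, and Clstn1, a membrane protein that binds kinesin light chain, at 328, 420 and 430 TPM. The lowest was Rilp, a lysosomal adaptor for dynein, at 1.83, 1.12 and 0.875 TPM. The list median was 81.5 ± 8.60 TPM.

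Most tested members differed between libraries by more than counting error. The chi-square test on counts scaled by TMM, a factor that discounts extreme genes, called 41 of the 44 members tested, against 74.3% of 12949 genes. Among members still tested, 12 calls were lost without replicate 1, 8 without replicate 2 and 8 without replicate 3. Kif4 without replicate 2 and Kif22 without replicate 3 fell under the minimum and were not tested. Klc4 was lost without replicate 2, Kif9 without replicate 1 and Kif24 without replicate 3. The differences were mostly small, at a median ratio of 1.32 between the highest and lowest libraries for members and 1.41 for all genes tested. Of the 44 members tested, 14 were called with replicate 1 lowest and 16 with it highest, against 30.9% and 29.6% of 12949 genes. Among calls only, these were 14 and 16 of 41 members, against 4006 and 3832 of 9620 genes. The roles were divided. Of 11 transport kinesins called, replicate 1 was the highest in 7 and the lowest in 0, and of 6 dynactin genes called it was the highest in 1 and the lowest in 5.

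Exon length moved with this split. Over all tested genes the median log2 difference of replicate 1 from the mean of the others was -0.52 for exons under 1500 nt, -0.26 from 1500 to 3000 nt, -0.05 from 3000 to 6000 nt and 0.12 over 6000 nt. Across genes, which share these 3 libraries, Spearman's rho between length and that difference was 0.31 over 12456 genes and 0.53 over 44 members. Dynll1 at -1.34, Dctn3 at -0.87, Dctn6 at -0.87 and Klc1 at -0.71 lay further down than the median of their length class, while Dynlrb1 stood at -0.01 with exons of 1009 nt. The median of the oligodendrocyte markers also differed, at 27.4, 20.1 and 18.9 TPM, with Cnp at 136, 93.2 and 78.1 TPM. Of 7 tested, 4 differed between libraries by the chi-square test, against 74.3% of the 12949 genes tested. Mbp, chosen after its values were seen, did not pass at 37.5, 37.0 and 37.3 TPM. The part of length or of these cells in the members' differences was not tested.

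**Figure D4:**
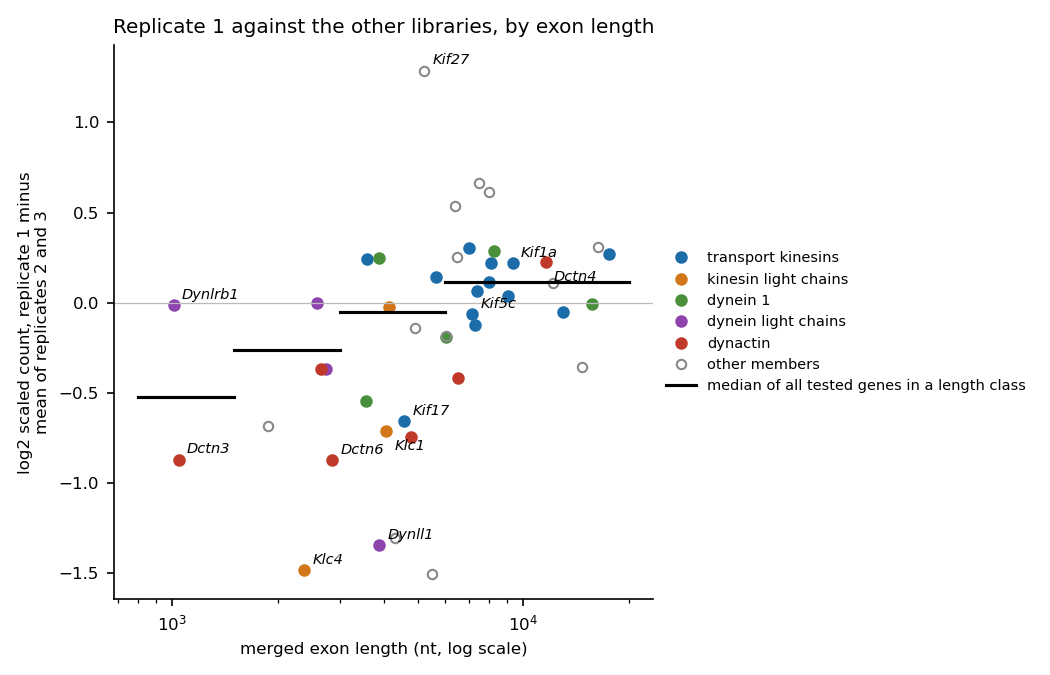
Log2 difference of replicate 1 from the mean of replicates 2 and 3 against merged exon length (log axis) for the 44 members tested, coloured by role. Black lines give the median of all tested genes in 4 length classes, which runs from -0.52 to 0.12, and Dynll1 lies at -1.34.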

How the data were processed

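The authors' deposited files hold raw read counts per gene symbol, 1 per library, for 3 libraries. Per the submitters' processing notes, STAR 2.0.0e, HTSeq and build mm10 were used, without the role of each. No source used here gives the annotation, counting mode or strand setting. Gene counts summed to 14383545, 13951332 and 14461053. Lines naming no gene were left out: 11.8%, 11.0% and 13.1% of records had no feature, 2.49%, 2.83% and 2.68% were ambiguous and 11.2%, 11.3% and 13.1% were not uniquely aligned. Floors for 0 counts cover counting error only.

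TPM was computed from the counts and merged exon lengths of GENCODE M21 (GRCm38, the assembly of mm10). Lengths were found for 23155 symbols directly and 737 by an older name, but not for 8639. Log values are log2(TPM + 0.1), which understates differences of genes near 0. The level test used limma 3.58.1 with an intercept only, and the variation test a chi-square on TMM-scaled counts from edgeR 4.0.16. Both were fitted on every gene whose mean CPM was 1 or more, the level test only where a length was known. They covered 12456 genes for level and 12949 for variation. Both were adjusted by Benjamini-Hochberg at 0.05, two-sided for limma, and tested on simulated data. DESeq2 1.42.0 size factors served as an alternative. R 4.3.3 and Python 3.11.15 were used. Promoter windows are RefSeq's, found for 48 of 63 members.

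The members and lists were chosen with earlier results of these data known. Named were members of the transport, mitotic, light chain, dynein 1 and dynactin lists, of other lists the highest 3, the lowest and those at 0, and the 5 members with the largest library ratios. Dynll1, Dynlrb2, Dynlt1a and Dynlt1b were added after their values were seen. The values of 1 marker gene are not reported here.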

Additional observations from a re-analysis of the deposited data

How the results depend on the processing

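The difference of transport minus mitotic kinesins, 7.93 on the log2 scale, was 6.46 with a pseudocount of 1 TPM, 7.49 with the longest transcript as length, 7.70 with no length used, 6.40 over members that met 1 CPM, 7.11 with list means and, an alternative chosen after seeing the data, 7.70 with 0 counts set to 3 per library. It ran from 7.90 to 7.95 with 1 library left out. Without the filter on low counts, 28 members lay below the library median, against 15, since members of low count were then tested too, and the level of Dync2li1 was 0.85, against -0.15, and -1.41 without the length correction. The level of Dync2h1 was 0.044 without the filter and 0.89 without the length correction, against -0.96. Counts of members above the median ran from 28 to 29 over the alternatives tried. Genes that varied between libraries fell to 5542 without replicate 1, against 9620, and ran up to 8071 with another library left out; members that varied then numbered 29 to 33. Without the length correction, Dync1i2 minus Dync1h1 was -0.75 (0.91 with the longest transcript) and Dctn3 minus Dctn5 was -0.56, against 0.17 and 0.79 on the log2 scale. Dctn3 minus Dctn6, 1.07, was -0.021 with the longest transcript and -0.38 without length. The cause of these turns was not tested. No paired analysis was possible because there is 1 group. Depth limits the 19 members under 1 CPM, for which neither test was made with the filter in place. Among them, the counts of Dynlt1a, Dynlt1b and Dynlt1f also leave out reads without a unique alignment.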
